A study of Mus musculus with 12 samples.

Results

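The F1 testes called 5NC were compared with those called 3NC, the vector controls of the same study. All 6 libraries of these groups were taken, 3 of each, out of 12 libraries in 4 groups, and every gene with 10 or more reads in 3 or more of the 6 libraries was tested, which gave 15983 of 20788 genes. Neither group was meant to differ in lncRNA5251, so the contrast shows how far 2 control lineages stood apart in their testis RNA. Per the study's methods, 3NC mice were sons of ICR males whose testes received the LV3 lentivirus with a control hairpin, and 5NC mice were sons of ICR males that received the LV5 vector. The labels write the strain as "IRC mouse". The other 6 libraries came from the knockdown group, built on LV3, and the overexpression group, built on LV5, and they entered the fit only to share the estimate of the spread. The males were injected at 4 weeks of age and mated at 9 weeks with untreated ICR females, and their sons were collected at 8 weeks. The design text of the series instead says that the F1 testes were transfected. ICR is an outbred stock. Whether the 3 libraries in each group are 3 animals, and from how many litters or fathers, is not in the labels, so p-values measure only the spread between these libraries.

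The adult mouse testis holds germ cells at every stage from spermatogonia through meiotic spermatocytes to round and elongating spermatids, with Sertoli cells inside the tubules and Leydig cells, macrophages and vessels between them. Most of its messenger RNA comes from spermatocytes and spermatids. A lentiviral vector control is meant to match injection, virus and backbone without the sequence under study. Here, per the study's methods, the testes were those of sons of the injected males. Such a control can serve as a common baseline only as far as it matches the other control. Genes of red blood cells, such as the globins, are read in whole testis because blood is collected with the tissue.

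The control hairpin is shown because it was the only designed RNA named for either control. It was searched in 141767 GENCODE transcripts of GRCm38, and 0 of them held it on either strand.
3NC control hairpin: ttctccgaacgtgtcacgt

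The 6 libraries held 13699547 to 15771655 estimated reads each. The labelled tissue fitted the markers, since Prm2, a protamine of elongating spermatids, was at 3956 to 5618 CPM (reads scaled to a common library size) and Ldhc, the germ cell lactate dehydrogenase, at 2641 to 3355 CPM in all 6. The second 3NC library stood apart, with 223 genes above 4 times the median of the other 5, against 0 to 18 genes in each of those. Its leading genes were Gbp2b at a ratio of 85.2, Hbb-bs at 83.0, Ccl6 at 81.5, Ccl5 at 69.1 and Cfb at 64.8, and all but Hbb-bs are genes of immune cells or of the response to interferon or inflammation. Hbb-bs does not set this library apart, since its ratio was also 76.25 in the first and 35.58 in the third 3NC library. The median standard deviation of a gene on the log2 CPM scale was 0.235 in 3NC and 0.165 in 5NC, and 70.5% of the tested genes had the smaller one in 5NC.

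Between the 2 controls, 21 genes passed the test (0.131% of those tested), 5 of them higher (0.0313%) and 16 lower (0.1%) in the LV5 controls (edgeR quasi-likelihood test, Benjamini-Hochberg adjusted p under 0.05). With total counts and no scaling, 37 genes passed, 14 higher and 23 lower. In the same fit, 0 genes passed for knockdown against 3NC (901 at an unadjusted p under 0.05, 5.64%) and 51 for overexpression against 5NC (0.319%), and each of these comparisons uses one of the 2 controls. At an unadjusted p under 0.05 the controls differed in 1698 genes (10.6%), 675 higher (4.22%) and 1023 lower (6.4%). The median log2 fold change over all tested genes was -0.02. Over 4-fold differences were seen in 150 genes (0.94%), and 9 of them passed. Genes that rose or fell are described here as they stood in 5NC relative to 3NC.

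**Figure D1:**
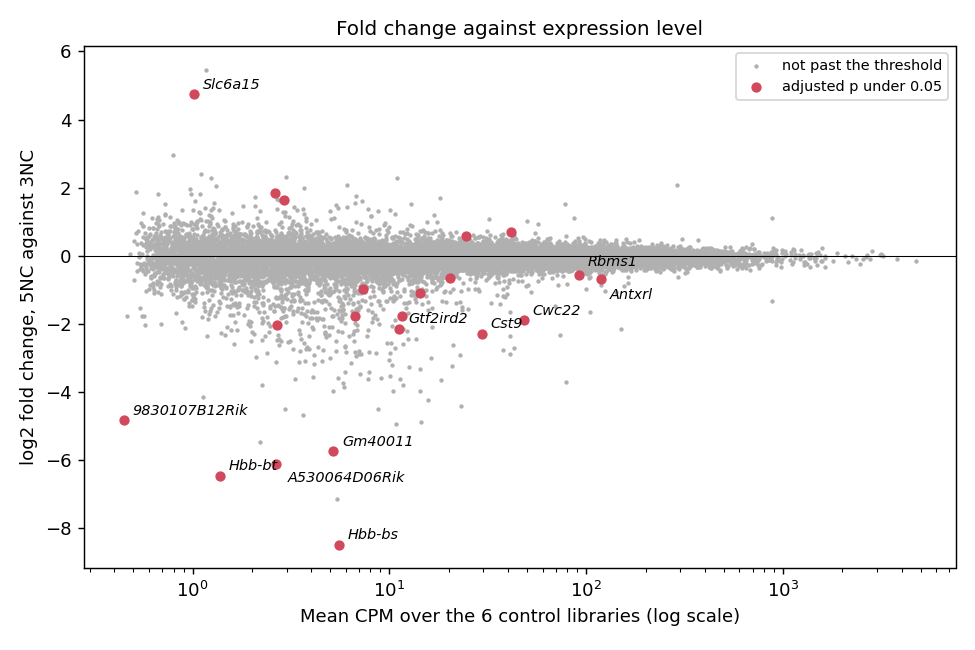
Log2 fold change of 5NC against 3NC for each of the 15983 tested genes against its mean CPM over the 6 libraries (log axis), with the 21 genes past the threshold in red. Most genes lie close to 0, and Hbb-bs, Hbb-bt, A530064D06Rik, Gm40011 and 9830107B12Rik lie far below it.

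The number of genes depended on single libraries. It was 14 without the first, 36 without the second and 35 without the third 3NC library, and it was 6 without the first, 8 without the second and 3 without the third 5NC library. Gm40011, A530064D06Rik and Hbb-bs passed whichever of the 6 libraries was left out, and Glipr1l3 passed in none of these 6 fits. Alx1, Tgm6, Ncaph, Antxrl, Gxylt2 and Rbms1 passed in 1 of the 6, Capns2, Hbb-bt and A630023A22Rik in 2, Dchs1, Cst9, Trim6 and Bdh1 in 3, Gtf2ird2 and 9830107B12Rik in 4, and Cwc22 and Slc6a15 in 5. With only the 6 control libraries in the edgeR fit, 7 genes passed, 0 of them higher and 7 lower (1003 at an unadjusted p under 0.05 in either direction), whereas DESeq2 on all 12 libraries called 60 higher and 101 lower.

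In all 21 genes, the 3 libraries of one control lay entirely above or below those of the other, which held for 13.1% of all tested genes (5NC above in 6.77% and below in 6.33%). In 20 of the 21, the 5NC libraries also lay outside the range of the other 9 libraries, which held for 5.99% of all tested genes. The 3NC libraries lay outside the range of their other 9 in 4 of the 21, and in 0.469% of all tested genes. Of the 126 values that the knockdown and overexpression libraries gave for these genes, 109 (86.5%) lay nearer to the 3NC mean than to the 5NC mean (on the scale of log2(CPM + 0.5)) and 2 lay inside the 5NC range. Over all tested genes 57.0% of these values lay nearer to 3NC. For the 21 genes the share was 88.9% in the knockdown and 84.1% in the overexpression libraries, against 59.0% and 55.0% over all genes. In 14 of the 21 genes all 6 of these libraries were on the 3NC side, as in 14.1% of all genes. The 21 were chosen for differing between the controls, so these shares describe them and test nothing.

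**Figure D2:**
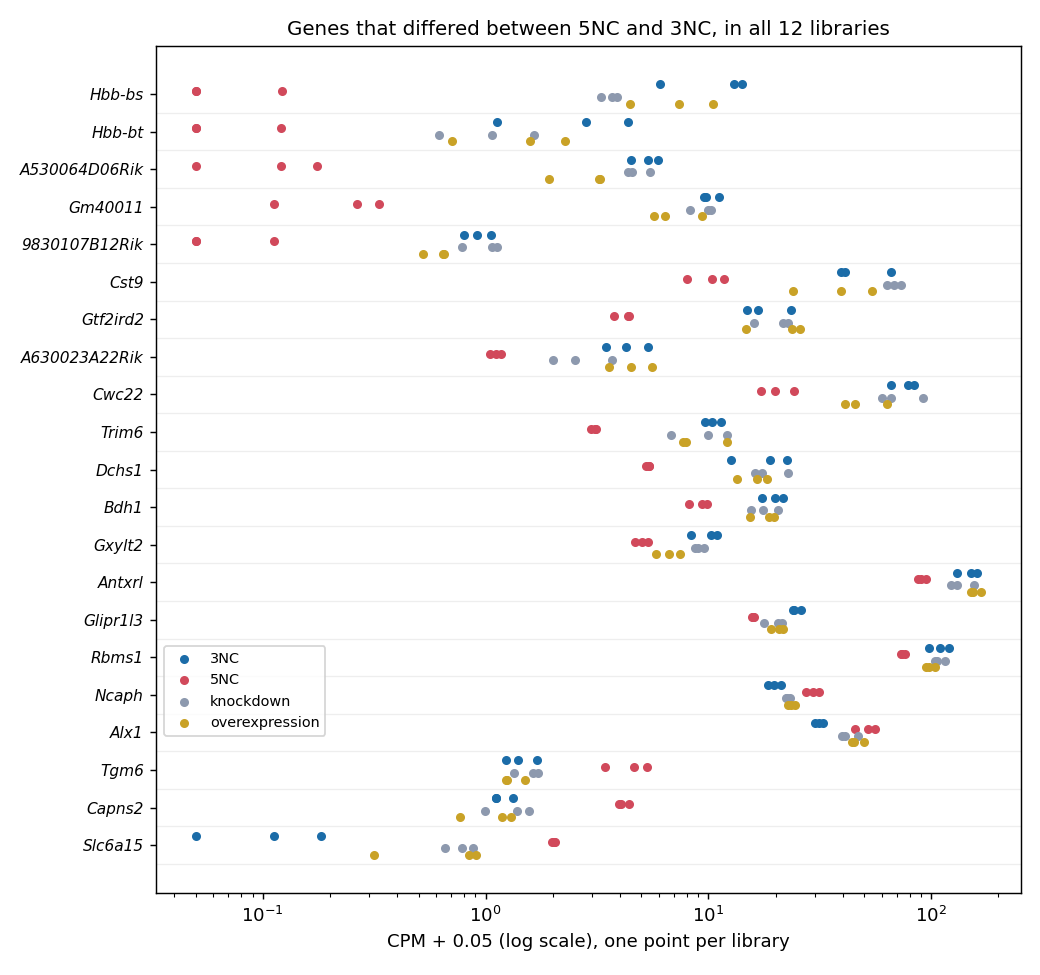
CPM plus 0.05 (log axis) of the 21 genes in all 12 libraries, one point per library and one colour per group, ordered by fold change from lowest at the top. The red 5NC points lie apart from the other 3 groups in every gene but Alx1.

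Several of the differences were close to presence against absence. Among the 43 tested genes that reached 10 reads in all 3 libraries of one control and in none of the other, 6 passed: Gm40011, A530064D06Rik, 9830107B12Rik, Hbb-bs, Hbb-bt and Slc6a15. Such genes entered the test only through the group in which they were high, so their number is no measure of how often genes differ. The filter also kept 259 genes with 10 reads in exactly 3 libraries, at a median of 63 reads summed over the 6, and left out 352 with 10 reads in exactly 2 libraries, at a median of 51.

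Hbb-bs and Hbb-bt encode the beta chains of adult haemoglobin on chromosome 7. Their promoter sequences just before the transcription start are shown because both genes fell together. They are RefSeq windows of 120 bases on build GRCm38.p6, the same build as mm10, at chr7:103827929-103828048 and chr7:103813924-103814043, both on the minus strand. Capitals mark on either strand the letters of 3 boxes of globin promoters, which are CACCC for the first, CCAAT for the second and TATAA for the TATA box. Of 32851 RefSeq windows of this length, 31.7% held the first, 21.3% the second and 11.8% the last. Both windows held all 3, and 93 of 120 bases (77.5%) were identical between them when aligned.
Hbb-bs: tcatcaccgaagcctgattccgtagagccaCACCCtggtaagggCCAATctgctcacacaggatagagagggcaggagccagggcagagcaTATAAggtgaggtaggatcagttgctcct
Hbb-bt: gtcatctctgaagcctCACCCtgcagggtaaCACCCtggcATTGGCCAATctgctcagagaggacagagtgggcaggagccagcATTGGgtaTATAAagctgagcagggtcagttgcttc

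Hbb-bs was at 13.0, 14.1 and 6.0 CPM in the 3NC libraries and at 0.00, 0.00 and 0.07 CPM in the 5NC libraries. These values rest on 512 reads against 1 read, a ratio of 481.5 with a 95% counting interval of 86.0 to 19060 (exact binomial, counting error only). The fitted difference was -8.48 ± 0.69 (log2 fold change ± SE), with an adjusted p of 0.0003 by edgeR. The 6 knockdown and overexpression libraries lay at 3.23 to 10.4 CPM, above every 5NC library, and 2 of them lay inside the 3NC range. Hbb-bt gave 2.78, 4.30 and 1.08 CPM in 3NC and 0.00, 0.07 and 0.00 CPM in 5NC, on 127 reads against 1 (ratio 119.4, interval 21.1 to 4755). Its log2 fold change was -6.46 ± 0.96 with an adjusted p of 0.027, and it lost the threshold without the first 3NC library or without any one of the 5NC libraries, with adjusted p up to 0.18.

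Hbb-b1 and Hbb-b2 are the adult beta-globin genes of another haplotype of mice, and Hbb-bs and Hbb-bt are those of the reference strain C57BL/6J. The RefSeq table places Hbb-b1 and Hbb-b2 outside the stretch of chromosome 7 that holds Hbb-bs and Hbb-bt, so the 4 rows may be versions of one locus rather than 4 genes of one genome, which was not tested. Neither Hbb-b1 nor Hbb-b2 passed the test. Hbb-b1 had 150, 127 and 114 reads in 3NC and 346, 498 and 359 reads in 5NC, a log2 fold change of 1.69 (adjusted p of 0.33). Hbb-b2 had 35, 24 and 9 reads in 3NC and 63, 115 and 79 in 5NC, a log2 fold change of 1.99 (adjusted p of 0.44). Added together, Hbb-b1 and Hbb-b2 came to 9.98 ± 2.04 CPM in 3NC and 33.3 ± 8.94 CPM in 5NC (SD, n = 3; exact permutation test, two-sided, p = 0.1, the smallest p that 3 against 3 libraries allow). The 4 beta rows together came to 23.7 ± 7.24 CPM in 3NC and 33.3 ± 8.97 CPM in 5NC (n = 3, exact permutation p = 0.3). The 2 alpha-globin genes, Hba-a1 and Hba-a2, together came to 29.1 ± 16.1 and 34.0 ± 3.69 CPM (n = 3, exact permutation p = 0.7), which is within the spread between libraries. Hbb-bs and Hbb-bt thus took 46.1% to 66.2% of the reads on the 4 beta rows in 3NC and 0% to 0.23% in 5NC, and 10.1% to 60.3% in the other 6 libraries. These 3 exact tests form one family, and none would pass an adjustment.

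The 4 beta rows are alike in sequence, and the sources used here do not give how the authors shared reads among copies. Of the 594 windows of 35 bases in the Hbb-bs transcript, 66.7% occur exactly in the Hbb-bt transcript. The level of any one copy is therefore uncertain. The sum over the 4 does not depend on how reads were shared only if each read was counted once, which was not tested. Hbb-y, the embryonic beta-like globin, was at 0 reads in all 6 control libraries. Hbb-bh1 and Hbb-bh2 of the globin list were not analysed here. Alas2, the first enzyme of haem synthesis in red cells, lay at 18.9 to 20.8 CPM in 3NC and at 18.7 to 20.6 CPM in 5NC.

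**Figure D3:**
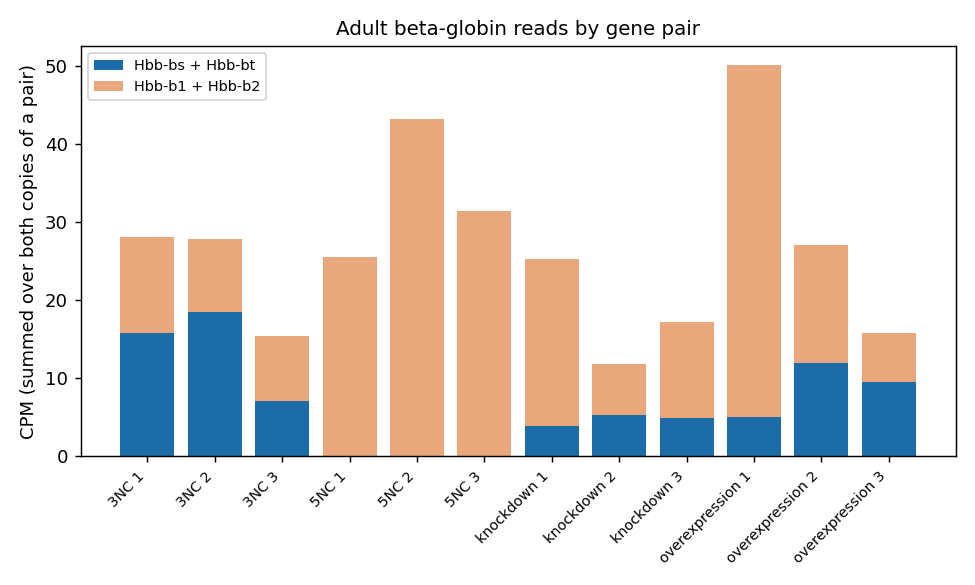
CPM of the adult beta-globin genes in each of the 12 libraries as stacked bars from 0, with Hbb-bs plus Hbb-bt in blue and Hbb-b1 plus Hbb-b2 in orange. The blue part is at most 0.07 CPM in the 5NC bars and 3.81 to 18.4 CPM in the others, while the full height of the 5NC bars lies within the range of the other libraries.

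Hbb-bs and Hbb-bt lay at the start of a stretch of chromosome 7 in which further genes were lower in 5NC. Trim6, an E3 ubiquitin ligase of antiviral signalling 392 kb from Hbb-bs (distances between genes are between their lowest coordinates unless transcription starts are named), was at 10.3, 11.3 and 9.58 CPM in 3NC and 3.06, 3.09 and 2.93 CPM in 5NC. That is a log2 fold change of -1.78 ± 0.24 (adjusted p of 0.015). Dchs1, a large protocadherin that binds Fat4 across cell borders, lay 1926 kb from Hbb-bs and was at 22.4, 18.9 and 12.5 CPM in 3NC and 5.36, 5.20 and 5.36 CPM in 5NC. Its log2 fold change was -1.75 ± 0.22 (adjusted p of 0.0098). For both genes the 6 knockdown and overexpression libraries were all on the 3NC side, and both lost the threshold without any one of the 5NC libraries, with adjusted p up to 0.121 and 0.0995.

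Around them lay genes that did not pass. Trim5, a relative of the retrovirus restriction factor, was at 1.92, 3.74 and 0.74 CPM in 3NC and 0.12, 0.07 and 0.14 CPM in 5NC, with an adjusted p of 0.059. Ubqln5 and Ubqlnl, 2 ubiquilin genes of the testis, had log2 fold changes of -0.59 and -0.31 with adjusted p of 0.28 and 0.33. Trim30d (-3.80) and Trim30a (-2.55) had unadjusted p under 0.05, as did Gvin1 (-3.59) close to Dchs1. These 3 were high in the second 3NC library alone, for example Trim30a at 45.1 CPM there against 2.02 and 2.71 CPM in the other 3NC libraries. Without that library the log2 fold change of Trim30a was 0.25, the opposite sign.

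**Figure D4:**
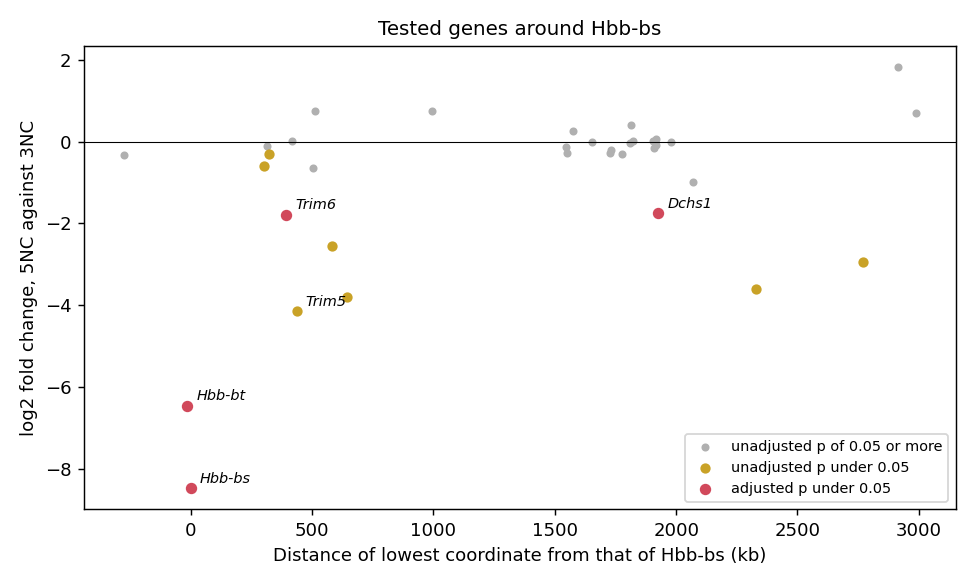
Log2 fold change of 5NC against 3NC for the tested genes from 1000 kb before to 3000 kb after Hbb-bs, against distance in kb between lowest coordinates. The 4 genes past the threshold (red) are all below 0, and many genes between them lie near 0.

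A530064D06Rik and 9830107B12Rik are neighbouring genes on chromosome 17, with transcription starts 21 kb apart, and both were almost unread in 5NC. They lie beside Trem1, a receptor that amplifies inflammation on myeloid cells. Their windows of 120 bases before the start, at chr17:48167258-48167377 and chr17:48146308-48146427 (minus strand, GRCm38.p6), are shown for the same reason as the globins'. The windows share 87 of 120 bases when aligned (72.5%). CACCC occurs in each on the opposite strand, read as GGGTG in capitals, and the other boxes were not found in these letters.
A530064D06Rik: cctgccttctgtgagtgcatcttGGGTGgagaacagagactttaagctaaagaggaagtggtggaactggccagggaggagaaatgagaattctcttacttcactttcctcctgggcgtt
9830107B12Rik: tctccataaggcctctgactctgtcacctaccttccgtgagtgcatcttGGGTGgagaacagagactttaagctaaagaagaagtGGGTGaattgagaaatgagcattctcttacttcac

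A530064D06Rik was at 5.89, 5.29 and 4.45 CPM in 3NC and 0.12, 0.07 and 0.00 CPM in 5NC, on 240 reads against 3 (ratio 75.2, counting interval 25.4 to 367.4). Its log2 fold change was -6.11 ± 0.47 with an adjusted p of 0.00023. The knockdown libraries were at 4.33 to 5.41 CPM and the overexpression libraries at 1.87 to 3.22 CPM, so no other library came near the 5NC level. 9830107B12Rik was at 0.86, 0.75 and 1.01 CPM in 3NC and 0.06, 0.00 and 0.00 CPM in 5NC, on 40 reads against 1 (ratio 37.6, interval 6.38 to 1523). Its log2 fold change was -4.83 ± 0.60 with an adjusted p of 0.0098, and it lost the threshold without the second or the third 5NC library (adjusted p up to 0.0771). Of the 1825 windows of 35 bases in the A530064D06Rik transcript, 17.9% occur in that of 9830107B12Rik, so part of the reads could belong to either. Trem1 itself, 81 kb from A530064D06Rik, had a log2 fold change of -0.51 (adjusted p of 0.44). The neighbours 1700067P10Rik (-0.34), Tomm6 (0.47) and Foxp4 (0.67) had unadjusted p under 0.05 and adjusted p of 0.44 to 0.47, in both directions.

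Gm40011, a predicted gene on chromosome 2 at 173082780 to 173138200, had the smallest p of all. It was at 9.73, 9.53 and 11.1 CPM in 3NC and 0.06, 0.28 and 0.21 CPM in 5NC, on 465 reads against 8. The log2 fold change was -5.74 ± 0.35 with an adjusted p of 4.6e-05, and the other 6 libraries lay at 5.63 to 10.2 CPM. Spo11, the enzyme that makes the DNA breaks of meiosis, lay 105 kb away and was at 43.2, 44.7 and 46.3 CPM in 3NC and 56.8, 62.2 and 66.0 CPM in 5NC. It did not pass, at 0.46 on the log2 scale and an adjusted p of 0.079. Ctcfl lies inside the span of Gm40011 and was at 2.74 to 4.18 CPM in 3NC and 2.56 to 3.00 CPM in 5NC. Its log2 fold change was -0.24 (adjusted p of 0.76 by edgeR). The counting is not stated to use strand, so reads of Gm40011 and Ctcfl cannot be told apart where they overlap.

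A further 3 genes fell by more than 4-fold or close to it at a high level. Cwc22, which joins the spliceosome to the exon junction complex, was at 65.7, 83.4 and 78.6 CPM in 3NC and 17.1, 24.2 and 19.9 CPM in 5NC. The log2 fold change was -1.89 ± 0.21 (adjusted p of 0.0052), and it lost the threshold only without the third 5NC library among the 6 left out (adjusted p of 0.064). Gtf2ird2, a member of the TFII-I transcription factor family, was at 23.3, 16.6 and 14.8 CPM in 3NC and 4.30, 4.36 and 3.72 CPM in 5NC (log2 fold change -2.14 ± 0.25, adjusted p of 0.0069). Its neighbours Castor2 (-0.68), Limk1 (-0.70) and Clip2 (-0.48) had unadjusted p under 0.05 and adjusted p of 0.22, 0.36 and 0.44. Cst9, which encodes testatin, a cystatin-like protein of the testis, was at 40.8, 39.5 and 66.0 CPM in 3NC and 7.98, 11.7 and 10.3 CPM in 5NC. Its log2 fold change was -2.29 ± 0.29 (adjusted p of 0.01). Gtf2ird2 lost the threshold without the first or the third (adjusted p up to 0.0769) and Cst9 without any one of the 5NC libraries (up to 0.102). In these 3 genes each of the 6 other libraries was on the 3NC side.

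A630023A22Rik and Antxrl overlap on chromosome 14, and the counting is not stated to use strand, so their reads cannot be told apart where they overlap. A630023A22Rik was at 4.24, 3.43 and 5.33 CPM in 3NC and 1.06, 1.12 and 1.0 CPM in 5NC, a log2 fold change of -2.02 ± 0.29 (adjusted p of 0.022). Antxrl, an anthrax toxin receptor-like gene, was at 150.7, 129.7 and 160.0 CPM in 3NC and 94.99, 86.7 and 90.3 CPM in 5NC, a log2 fold change of -0.70 ± 0.10 (adjusted p of 0.028). Among the 6 fits with a library left out, A630023A22Rik passed without the second or the third and Antxrl only without the second 3NC library, with adjusted p up to 0.167 and 0.177. Nearby, Ptpn20 (0.38) and Zfp488 (-0.27) had unadjusted p under 0.05 and adjusted p of 0.35 and 0.43.

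The remaining lower genes lay alone. Bdh1, the mitochondrial enzyme that interconverts the ketone bodies, was at 17.3, 19.7 and 21.6 CPM in 3NC and 8.17, 9.84 and 9.29 CPM in 5NC (log2 fold change -1.11 ± 0.15, adjusted p of 0.017). Its neighbour Apod, a lipid carrier of the lipocalin family, was at -1.29 with an adjusted p of 0.46. Gxylt2, which adds xylose to Notch-type repeats, was at 8.29 to 10.9 CPM in 3NC and 4.64 to 5.29 CPM in 5NC (-0.98, adjusted p of 0.035). Rbms1, an RNA-binding protein, was at 98.0 to 120.3 CPM against 73.2 to 76.1 CPM (-0.55, adjusted p of 0.033). Glipr1l3, of a family of secreted cysteine-rich proteins, was at 24.0 to 25.97 CPM against 15.6 to 15.9 CPM (-0.65, adjusted p of 0.034). With a library left out, Gxylt2 passed only without the third and Rbms1 only without the first 3NC library, with adjusted p up to 0.176 and 0.175, and Glipr1l3 never, with adjusted p up to 0.189. Bdh1 lost the threshold without any one of the 5NC libraries (adjusted p up to 0.121). The last 3 differed by under 2-fold, and their 5NC libraries lay close together.

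The 5 genes that rose included a pair on chromosome 10. Slc6a15, a transporter of neutral amino acids best known from neurons, was at 0.13, 0.06 and 0.00 CPM in 3NC and 1.93, 1.97 and 2.0 CPM in 5NC. It rested on 3 reads against 87, a ratio of 30.8 (counting interval 10.2 to 152.4), with a log2 fold change of 4.75 ± 0.58 (adjusted p of 0.0098, or 0.064 without the third 5NC library). The other 6 libraries lay between the controls at 0.27 to 0.86 CPM, outside both ranges. Alx1, a homeobox factor of the developing face 360 kb away, was at 32.7, 30.1 and 31.2 CPM in 3NC and 55.8, 45.5 and 52.0 CPM in 5NC (0.71 ± 0.10, adjusted p of 0.023). With one library left out, Alx1 passed only without the second 5NC library, and its adjusted p rose to as much as 0.167. Here the 3NC libraries stood below all 9 others, and 2 of the 6 other libraries lay inside the 5NC range. Gm34298, which overlaps Alx1 at its end, had a log2 fold change of 0.33 (adjusted p of 0.28).

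Capns2, a small subunit of calpain, was at 1.06, 1.06 and 1.28 CPM in 3NC and 4.37, 3.93 and 4.0 CPM in 5NC (1.85 ± 0.25, adjusted p of 0.017). It passed only without the second or the third 3NC library among the 6 left out, with adjusted p up to 0.103. Tgm6, a transglutaminase, was at 1.65, 1.18 and 1.35 CPM in 3NC and 5.24, 3.37 and 4.57 CPM in 5NC (1.65 ± 0.24, adjusted p of 0.022), and Pced1a nearby was at 0.30 with an adjusted p of 0.28. Tgm6 passed only without the second 5NC library, with adjusted p up to 0.135. For both Capns2 and Tgm6 the other 6 libraries were on the 3NC side. Ncaph, a subunit of condensin I, was at 18.5, 21.1 and 19.6 CPM in 3NC and 31.3, 27.3 and 29.4 CPM in 5NC (0.57 ± 0.09, adjusted p of 0.039), and it passed only without the second 3NC library, with adjusted p up to 0.197. Its neighbours Zfp661 (0.52) and Kcnip3 (0.48) were higher and Gabpb1 (-0.28) and 1810024B03Rik (-0.56) lower in 5NC, each at an unadjusted p under 0.05 and adjusted p of 0.11 to 0.41.

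By position, 6 of the 21 genes lay on chromosome 2, which holds 7.8% of the tested genes, 4 on chromosome 7 (7.69%), 3 on chromosome 10 (4.5%) and 2 each on chromosomes 14 (3.88%) and 17 (4.85%). Within 500 kb of them lay 145 other tested genes, of which 23 (15.9%) had an unadjusted p under 0.05, beside 10.6% of all tested genes. Within 2000 kb, a window chosen after seeing the data, it was 57 of 484 (11.8%).

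The lists of marker and pathway genes held 3 of the 21 genes, namely Hbb-bs and Hbb-bt among the globins and Cwc22 among the splicing and exon junction complex genes. In the other 22 of 24 lists, 0 members passed. In whole tissue, fewer cells of a type and less RNA per cell cannot be told apart.

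No member of the germ cell lists passed. Of the 22 round spermatid genes, 17 had a negative and 5 a positive log2 fold change, with a median of -0.17 beside -0.02 for all genes, and 7 (31.8%) were lower at an unadjusted p under 0.05, against 6.4% of all genes. Izumo1, the sperm protein that binds the egg, was at 72.9, 65.6 and 98.0 CPM in 3NC and 56.6, 56.5 and 62.8 CPM in 5NC. Acrv1, of the acrosome matrix, was at 177.2, 143.3 and 226.0 CPM against 138.8, 134.1 and 135.9 CPM. The most abundant tested members were Tssk2, a testis kinase, at 327.5 to 485.5 CPM against 334.6 to 413.8 CPM, and Zpbp2, which binds the zona pellucida, at 266.6 to 363.2 CPM against 318.4 to 390.5 CPM. Of the 24 elongating spermatid genes 20 were negative, with a median of -0.17 and 4 (16.7%) lower at an unadjusted p under 0.05. Their most abundant members, Prm2 and Odf2 (a protein of the tail's outer dense fibres), overlapped between the controls, Prm2 at 3956 to 5618 CPM against 4250 to 4715 CPM. Smcp, of the sperm mitochondrial capsule, was at 1524 to 2214 CPM in 3NC and 1430 to 1506 CPM in 5NC.

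Without the second 3NC library the medians moved to -0.32 for round and -0.31 for elongating spermatid genes, with 13 of 22 and 11 of 24 lower at an unadjusted p under 0.05, beside 8.68% of all genes in that fit, and still 0 past the adjusted threshold. They moved to -0.054 for round spermatid genes without the third 3NC library and to -0.071 for elongating spermatid genes without the first. Spermatocyte genes, with all libraries, had a median of 0.02 over 29 genes. Of these, 2 (6.9%) were higher and 1 (3.45%) lower at an unadjusted p under 0.05, beside 4.22% and 6.4% of all genes. Ldhc was at 2641 to 3289 CPM in 3NC and 3030 to 3355 CPM in 5NC, and Hspa2, a meiotic chaperone, at 873.8 to 1049 CPM against 830.0 to 986.7 CPM. Spermatogonial genes had a median of 0.14 over 18 genes, 13 of them positive and 0 at an unadjusted p under 0.05. Dmrtb1, a factor at the entry to meiosis, was at 482.3 to 666.3 CPM in 3NC and 637.5 to 722.7 CPM in 5NC, and Id4, a factor of spermatogonial stem cells, at 20.6 to 33.2 CPM against 24.6 to 32.0 CPM. The genes of the piRNA pathway, which silences transposons in germ cells, had a median of 0.04, and its most abundant members were Mael at 1176 to 1504 CPM against 1294 to 1381 CPM and Tdrd6 at 760.9 to 896.4 CPM against 874.1 to 930.8 CPM.

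The immune lists had the most negative medians, and these rested on the second 3NC library. The 18 antigen presentation genes were all negative, with a median of -1.22, and their summed level was 515.7, 2364 and 279.8 CPM in 3NC and 326.4, 477.9 and 373.2 CPM in 5NC. H2-D1, a class I molecule, was at 563.5 CPM in the second 3NC library, at 132.8 and 37.9 CPM in the other 3NC libraries and at 50.8 to 58.9 CPM in 5NC, and H2-K1, another, at 323.8, 112.6, 68.5 and 71.5 to 98.5 CPM in the same order. The 10 tested lymphocyte genes had a median of -1.48 and 5 of them were lower at an unadjusted p under 0.05, but Ptprc, the leukocyte common antigen, reached 94.98 CPM in that library and 2.12 to 3.77 CPM in the other 5, and Ccl5, a chemokine of T cells, 80.1 CPM there and 0.71 to 2.38 CPM in the others. The 18 macrophage genes had a median of -1.02. Their most abundant member, Aif1, overlapped between the controls at 299.5 to 340.2 CPM in 3NC and 286.1 to 308.6 CPM in 5NC (log2 fold change -0.11). Ctss, a lysosomal protease, was at 202.4 CPM in the second 3NC library and at 7.92 to 14.9 CPM in the other 5. Without the second 3NC library the medians were 0.29 for antigen presentation, -0.17 for lymphocytes and 0.15 for macrophages, with 0 genes of the 3 lists at an unadjusted p under 0.05.

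The interferon response list turned furthest. Over all libraries 24 of its 27 tested genes were negative, with a median of -1.25. At an unadjusted p under 0.05, 6 (22.2%) were lower, beside 6.4% of all genes. Without the second 3NC library 26 of 27 were positive, with a median of 1.40, and 11 (40.7%) were higher at an unadjusted p under 0.05 beside 3.85% of all genes, with 0 past the adjusted threshold. Its summed level was 111.1, 1628 and 89.6 CPM in 3NC and 198.3, 624.9 and 374.3 CPM in 5NC. Iigp1, an interferon-induced GTPase, was at 6.95, 209.8 and 6.61 CPM in 3NC and 36.9, 172.1 and 91.3 CPM in 5NC. Genes that sense viral nucleic acid had a median of -0.27, or 0.18 without that library, and their sum was 180.6 to 464.5 CPM in 3NC and 215.7 to 235.1 CPM in 5NC. Dhx58, an RNA helicase of this group, was at 46.1 to 53.9 CPM in 3NC and 47.2 to 59.1 CPM in 5NC, and Samhd1, which breaks down deoxynucleotides, was at 129.6 CPM in the second 3NC library and at 13.6 to 32.2 CPM in the other 5. The part of white blood cells in these differences was not tested.

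**Figure D5:**
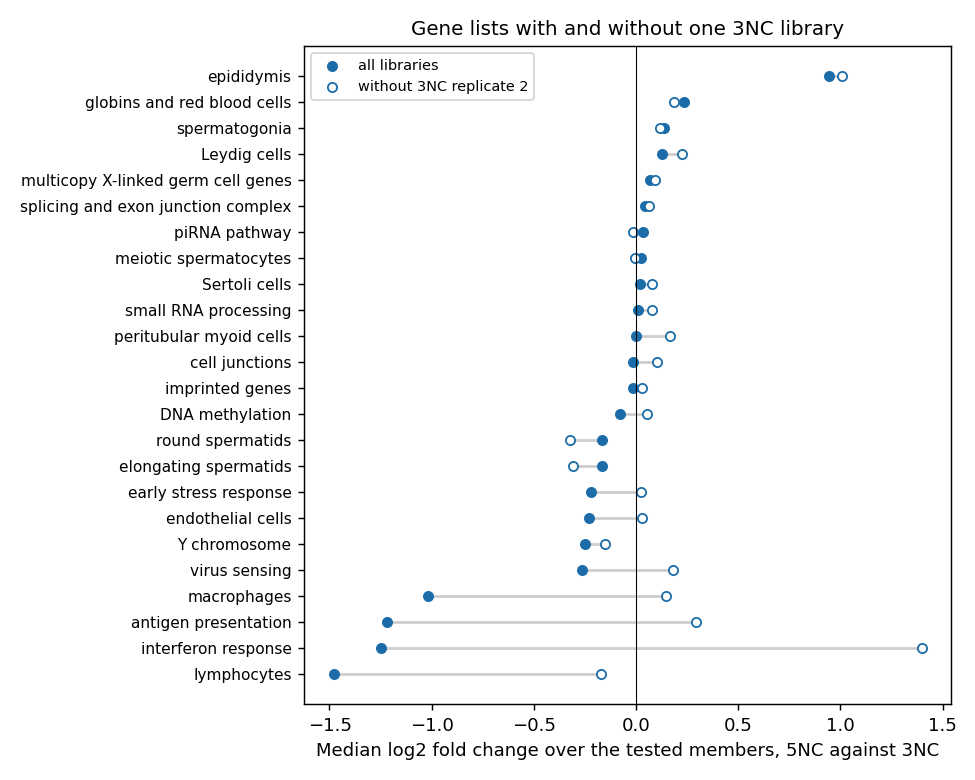
Median log2 fold change of 5NC against 3NC over the tested members of each of the 24 gene lists, with all libraries (filled points) and without the second 3NC library (open points). The interferon response list moves from -1.25 to 1.40, while the spermatid lists stay below 0.

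No member of the somatic testis lists passed. Sertoli genes had a median of 0.02 over 21 genes, with Clu at 521.9 to 702.6 CPM in 3NC and 507.5 to 644.3 CPM in 5NC and Ctsl at 231.3 to 444.9 CPM against 203.2 to 265.9 CPM. Leydig genes had a median of 0.13 over 18 genes and 0 at an unadjusted p under 0.05. Insl3, the hormone of testis descent, was at 393.7 to 741.8 CPM against 525.4 to 606.2 CPM, and Cyp17a1, an enzyme of androgen synthesis, at 308.4 to 747.5 CPM against 483.3 to 750.6 CPM. Peritubular myoid genes had a median of 0.00 and Actg2, a smooth muscle actin, at 193.0 to 247.6 CPM against 194.2 to 229.6 CPM, and Mylk, the kinase of myosin light chains, at 58.3 to 70.8 CPM against 64.6 to 70.2 CPM. Endothelial genes had a median of -0.23, with 13 of 16 negative, or of 0.03 without the second 3NC library. Vwf, the von Willebrand factor of vessel walls, was at 15.4 to 20.5 CPM in 3NC and 9.62 to 20.3 CPM in 5NC. Sox17, a transcription factor of arterial endothelium and the most abundant of the list, was at 16.7 to 20.9 CPM in 3NC and 16.9 to 22.5 CPM in 5NC (log2 fold change 0.09).

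Cell junction genes had a median of -0.01 over 24 tested genes, 12 positive and 12 negative. Nectin3, an adhesion protein of spermatids, was at 550.5 to 720.4 CPM in 3NC and 483.0 to 594.4 CPM in 5NC, and Ctnnb1, beta-catenin, at 128.3 to 172.0 CPM against 122.7 to 150.6 CPM. The small RNA processing genes, which a hairpin passes through, had a median of 0.01 over 14 genes with 0 at an unadjusted p under 0.05. Tarbp2, a partner of Dicer, was at 86.5 to 127.6 CPM in 3NC and 113.6 to 147.1 CPM in 5NC, and Tnrc6c, of the silencing complex, at 68.7 to 79.4 CPM against 70.5 to 77.7 CPM. Among the 17 splicing and exon junction genes Cwc22 fell, while Smg5 and Smg1, of nonsense-mediated decay, were at 205.8 to 262.6 and 232.7 to 238.0 CPM in 3NC and at 232.7 to 275.5 and 216.4 to 255.3 CPM in 5NC.

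The remaining lists were DNA methylation (median -0.08), imprinted genes (-0.02), early stress response (-0.22), the Y chromosome (-0.25) and multicopy X-linked germ cell genes (0.07). Without the second 3NC library the first 3 turned to 0.055, 0.027 and 0.022. Klf4 of the stress list was at 88.2 to 130.9 CPM in 3NC and 80.5 to 91.1 CPM in 5NC, and Dnajb1, a co-chaperone, at 257.7 to 326.1 CPM against 267.7 to 319.6 CPM. Mbd3 and Uhrf1 of the methylation list were at 65.1 to 104.9 and 75.2 to 90.8 CPM in 3NC and at 75.2 to 118.2 and 78.8 to 92.2 CPM in 5NC. The imprinted genes Gnas and Ube3a were at 121.4 to 193.1 and 104.1 to 137.8 CPM against 148.3 to 158.0 and 107.4 to 150.3 CPM. These ranges overlapped between the controls in each of the 6 genes. Eif2s3y and Ddx3y of the Y chromosome were at 53.3 to 74.4 and 19.3 to 33.3 CPM in 3NC and at 47.9 to 60.6 and 18.9 to 22.1 CPM in 5NC. Slxl1 and Btbd35f1 of the X-linked list were at 15.75 to 24.5 and 8.78 to 15.3 CPM against 13.0 to 16.02 and 6.17 to 12.4 CPM. Markers of the epididymis, the duct next to the testis, had a median of 0.95 over 6 tested genes of 15 listed, and of 0.29 without the second 5NC library. Crisp1, a secreted protein of that duct, was at 32.5, 61.7 and 26.2 CPM in 3NC and 9.85, 238.9 and 98.3 CPM in 5NC, so its 3NC values lay inside the 5NC range. The other 6 libraries held 0.07 to 13.3 CPM of it. Cst8, a cystatin and the most abundant tested member, had the opposite sign, at 171.6, 131.7 and 156.0 CPM in 3NC and 137.3, 135.4 and 134.4 CPM in 5NC, a log2 fold change of -0.17 (adjusted p of 0.62).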

How the data were processed

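Testis RNA of 12 libraries in 4 groups was read from the deposited table, and the 6 libraries of 5NC and 3NC were compared. Per the methods, the authors enriched mRNA with oligo(dT), aligned reads with SOAPaligner and called genes with DEGseq, a test without a term for library spread. The labels name build mm10. The deposited estimated counts per gene are unscaled, and 17.3% of rows hold fractions, which were rounded. The FPKM values were computed by the authors, and served one alternative with a pseudocount of 0.1. The 18 further per-sample columns, of other groups, were not used. Symbols were those deposited, or RefSeq's where blank. Coordinates came from RefSeq, matched by 20630 IDs (99.2%).

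All 12 libraries entered one edgeR 4.0.16 fit (R 4.3.3) with TMM scaling, a coefficient per group and no covariate. Benjamini-Hochberg adjustment ran over 15983 genes, with a threshold of 0.05. The fit gave a biological coefficient of variation of 21.8%, with 8 residual degrees of freedom. CPM values are TMM-scaled with the tested genes as library size. Depth was 13699547 to 15771655 estimated reads, and counting intervals are wide for low genes. Library pairs differed by more than sampling noise. The script was tested on simulated data.

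The members, the 24 lists and the tests were chosen with earlier results of these data known, so no list is independent support. Named were all genes past the threshold, their neighbours within 500 kb at an unadjusted p under 0.05, the globins, the leading genes of the library that stood apart, and from lists the members past the threshold and the 2 with the highest mean CPM. One gene that this rule names is not reported here. Izumo1, Acrv1, Smcp and Ctcfl, and the genes named in the closing section, were chosen after their values were seen. Alternatives changed scaling, filter, tool, samples and thresholds (DESeq2 1.42.0, limma 3.58.1).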

Additional observations from a re-analysis of the deposited data

How the results depend on the processing

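The 21 genes kept their direction in 375 of 375 values under the alternatives, while the count moved (DESeq2 gave no adjusted p for 9830107B12Rik, Hbb-bt and Slc6a15, which are left out there). Genes called (higher and lower) were 22 (5 and 17) with RLE factors, 37 (14 and 23) without scaling, 16 (4 and 12) without a filter, 21 (5 and 16) with filterByExpr, 23 (5 and 18) with limma-trend, 24 (6 and 18) with edgeR's robust option, 34 (15 and 19) with limma on log2(FPKM + 0.1), 81 (23 and 58) with voom quality weights and 161 (60 and 101) with DESeq2. They were 7 (0 and 7) with only the 6 control libraries and 9 (1 and 8) with a replicate block. At the thresholds of the study, an adjusted p of 0.001 and a log2 fold of 1, 3 genes passed (0 and 3), and 547 (85 and 462) with counting error only. Leaving out one library gave 3 to 36 genes, 0 to 15 higher and 3 to 32 lower. Without both the second 3NC and the first knockdown library, which stood apart, 59 passed (12 and 47). Of the 375 values of the 21 genes, 276 stayed past the threshold and 99 did not, and the cause was not tested. Deviations of same-numbered libraries of the 2 controls correlated at 0.331, 0.191 and -0.012. The first and the second 3NC library each correlated best with the 5NC library of its own number, and the third did not. Whether the numbers pair the samples was not tested. Over the fits with one library left out, Hba-a1 ranged from -0.082 (without the third 3NC library) to 0.735 around 0.236, and Trim30a from -3.061 to 0.254 (without the second 3NC library; 0.252 with the first knockdown library left out too).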

Other observations

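The kallikrein genes of the Leydig list, secreted proteases that lie together on chromosome 7, were low in one 3NC library and in all 6 knockdown and overexpression libraries. Klk1b21 was at 44.0, 38.4 and 4.72 CPM in 3NC and 44.0, 45.9 and 43.5 CPM in 5NC, and Klk1b24 at 33.4, 33.0 and 1.96 CPM against 34.5, 32.2 and 33.3 CPM. Klk1b27 was at 42.6, 42.2 and 4.11 CPM in 3NC and 50.4, 37.9 and 50.03 CPM in 5NC. The knockdown libraries held 1.73 to 3.68, 2.196 to 4.06 and 1.33 to 3.49 CPM of the 3 genes and the overexpression libraries 9.48 to 20.6, 9.54 to 16.7 and 6.12 to 23.6 CPM. The third 3NC library thus lay near the knockdown libraries, and the other 5 control libraries lay above all 7 of these. The adjusted p between the controls was 0.74 to 0.80 by edgeR. Cyp17a1 was at 308.4 CPM in the third 3NC library, at 483.3 to 750.6 CPM in the other 5 controls, at 183.3 to 309.1 CPM in the knockdown and at 384.9 to 732.7 CPM in the overexpression libraries.

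Adam7, a membrane protein of the epididymis, followed Crisp1. It was at 4.57, 7.04 and 3.51 CPM in 3NC and 1.37, 26.1 and 10.2 CPM in 5NC, so the 5NC libraries held both the lowest and the highest values. The second 5NC library had 18 genes above 4 times the median of the other 5, led by Gm10487, Crisp1, Wfdc16, Spink8 and Serpina16 at ratios of 12.6, 7.33, 7.17, 6.34 and 6.20.

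Within the control groups the 15 genes past the threshold with a mean of at least 1 CPM in both had a median coefficient of variation of 11.3% in 3NC and 6.6% in 5NC, and it was smaller in 5NC for 11 of them. Over all tested genes 70.5% had the smaller SD of log2 CPM in 5NC. Dchs1 varied by 1.8% in 5NC and 27.8% in 3NC, while Cwc22, Tgm6, Alx1 and Ncaph varied more in 5NC. The 15 genes were chosen by a test that weighs the spread between libraries, so these values describe them and test nothing.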
